A study of Mus musculus with 6 samples.

Results

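The Hippo pathway genes described here were taken from a table of RNA levels by gene name: Amotl2, Amot, Tead1, Tead2, Tead3, Yap1, Wwtr1, Lats1, Lats2 and Taok1. Of these 10 names, 8 occurred in the table, on 15 of its 15113 transcripts; Lats1 and Taok1 were not analysed here. With 3 unnamed transcripts assembled at the same loci, the set held 18 transcripts at 8 of 7171 loci. Amotl2 and Tead1 were chosen by the FPKM of their transcripts in these same libraries, so their values are given as a description, with no test.

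The RNA came from C17.2, a cultured line of neural progenitors of mouse origin (strain label CD1 x C57BL/6), sequenced after TruSeq library preparation. There were 3 groups, each labelled with 2 biological replicates: cells treated with heme, the iron-porphyrin group of hemoglobin; cells in a neural induction medium (NIM) of Knockout DMEM, GlutaMAX, N2 supplement and BDNF, a neurotrophin, at 10 ng/ml; and control cells in DMEM/F12 with serum. The NIM cells thus differed from control cells in base medium, supplements and BDNF together. The labels give no heme dose, no times and no medium for the heme cells. They call the replicates biological without naming separate cultures, so p-values measure the spread between these libraries, which may be technical.

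The heme replicate 2 value of every transcript was the replicate 1 value times a factor of 1.25 to 1.5, and the same 1150 transcripts were at 0 in both columns. Between the 2 NIM columns 1228 transcripts, and between the 2 control columns 1257, were at 0 in one column alone; between the heme columns there were 0. The heme columns were therefore counted as 1 sample, replicate 1, so heme has no replicate spread of its own. Levels are FPKM (fragments per transcript length and library depth), and the 5 libraries had 4.14 to 4.56 gigabases of mapped sequence behind them. Control replicate 2 was the highest or lowest library at 60.4% of the 7039 loci tested, against 33.2% to 36.1% for each of the other 4 libraries. Of the 8 Hippo loci it was the highest or lowest at 6. Of 8 progenitor markers 5 were listed, and these were present in every library (Nes 107.5 to 131.5 FPKM, Sox2 13.6 to 19.8 FPKM). Fabp7, Pax6 and Msi1 were not listed. Of the other markers, 0 of 6 erythroid and 0 of 8 microglial and endothelial ones were listed. The rule of the listing is not given, so an unlisted marker was not measured as absent. Of 6 neuronal markers 2 were listed. Tubb3 was at 14.0 FPKM in heme and 11.5 and 13.6 FPKM in NIM, against 12.9 and 11.3 FPKM in control. Its values overlapped between groups. Map2 was at 18.6 FPKM in heme and 11.7 and 15.4 FPKM in NIM, against 10.4 and 10.4 FPKM in control. It was higher in heme and NIM, with a limma adjusted p of 0.989 and 0.935. Heme and both NIM libraries exceeded both controls at 9.26% of all loci tested. The part of Map2 in the results below was not tested.

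In the Hippo pathway the kinases LATS1 and LATS2 phosphorylate the coactivators YAP (Yap1) and TAZ (Wwtr1), which keeps them out of the nucleus. Unphosphorylated YAP and TAZ bind the TEAD transcription factors and switch on growth genes, and in neural progenitors high YAP activity is known to favour proliferation. Angiomotins (Amot, Amotl1, Amotl2) are junction and actin scaffold proteins that bind YAP and TAZ and stimulate LATS, and Amotl2 and Lats2 are themselves TEAD targets, which closes a feedback loop.

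Amotl2 lies on the plus strand at chr9:102716672-102733418 (GRCm38), and its annotated first exons decide which transcript is which. ENSMUST00000145913 starts at the most upstream exon (chr9:102716672-102716811, 140 bases). ENSMUST00000153911 starts 617 bases further on (chr9:102717289-102717442, 154 bases), and the full-length ENSMUST00000035121 starts 379 bases beyond that (chr9:102717668-102717902, 235 bases). All 3 first exons are spliced to the same acceptor, at base 102720081. The 30 bases around each junction show where the transcripts diverge; lower case is the end of the first exon, capitals are the start of the shared exon 2, and the sequences are 5′ to 3′ from the GENCODE transcripts.
ENSMUST00000145913: tgaaactcgggacagGTGCTCTGAGACCAG
ENSMUST00000153911: ctgtaggaatggaggGTGCTCTGAGACCAG
ENSMUST00000035121: ccgcgggccgcagcgGTGCTCTGAGACCAG

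In ENSMUST00000145913 and ENSMUST00000035121 the annotated start codon is in exon 2, at base 102720143, so their first exons are untranslated. In ENSMUST00000153911 it is in the first exon, at base 102717436, which holds 7 coding bases. That reading frame runs 69 bases, or 23 codons, in frame before the shared start codon, so the annotation gives this transcript an extended N terminus. Both 2-exon models end within exon 2 and have no annotated stop codon. ENSMUST00000130602 begins within exon 2 and skips 412 of its 796 bases, and ENSMUST00000138224 is annotated as a retained intron, with 1035 intron bases before exon 3.

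**Figure D1:**
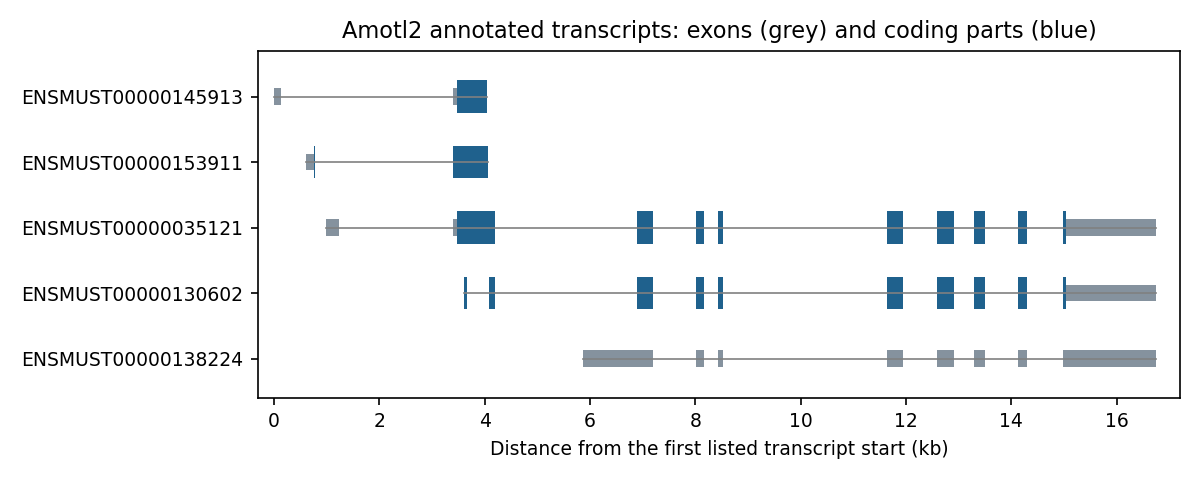
Annotated Amotl2 transcripts, with distance in kilobases from the first listed transcript start on the x axis and 1 row for each transcript. Thin grey boxes are exons and tall blue boxes their annotated coding parts; the upper 3 transcripts begin at different exons and share the start of exon 2, and the coding part of ENSMUST00000153911 alone begins in its first exon.

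Amotl2 showed an exchange of its 2 upstream first-exon transcripts at a constant total. ENSMUST00000145913 was at 20.9 FPKM in heme cells and 22.8 and 22.5 FPKM in NIM cells, against 0 and 0.0566 FPKM in control cells. ENSMUST00000153911 was at 0.270 FPKM in heme cells and 0.184 and 0.203 FPKM in NIM cells, against 22.1 and 22.2 FPKM in control cells. The first was thus high in heme and NIM and near 0 in both control libraries, the second the reverse, and the groups did not overlap in either. In such bulk RNA, fewer cells with a transcript and less of it per cell cannot be told apart. Mean coverage of ENSMUST00000145913 was 90.1 reads per base in heme and 103.9 and 93.2 in NIM, against 0 and 0.246 in control. For ENSMUST00000153911 it was 1.16 in heme and 0.838 and 0.843 in NIM, against 98.4 and 96.7 in control.

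The pair together was at 21.2 FPKM in heme cells, 23.0 and 22.7 FPKM in NIM cells, and 22.1 and 22.3 FPKM in control cells, and its highest library was 1.08 times its lowest. ENSMUST00000145913 made up 98.7% of the pair in heme and 99.2% and 99.1% in NIM, against 0% and 0.254% in control. As a share of the whole locus it was 38.6% in heme and 41.7% and 41.1% in NIM, against 0% and 0.106% in control. ENSMUST00000153911 was 0.499% of the locus in heme and 0.336% and 0.372% in NIM, against 39.8% and 41.7% in control. Both transcripts are short, so by sequenced bases instead of FPKM the shares are smaller: ENSMUST00000145913 took 10.3% of the bases of the locus in heme and 11.5% and 11.7% in NIM, against 0% and 0.0302% in control. The models share most of exon 2, and the deposited values do not separate reads of the first exons from reads of the shared exon, so how far the assignment of reads to models moves these shares was not tested.

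The longer Amotl2 transcripts divided differently, with the replicate 2 libraries of NIM and control apart from the other libraries. ENSMUST00000035121 was at 31.9 FPKM in heme and 29.6 and 8.87 FPKM in NIM, against 28.1 and 12.9 FPKM in control, so replicate 2 was low in both groups that have one. ENSMUST00000138224 was at 0.680 FPKM in heme and 1.87 and 15.8 FPKM in NIM, against 0.477 and 11.3 FPKM in control. ENSMUST00000130602 was at 0.449 FPKM in heme and 0.254 and 7.34 FPKM in NIM, against 0.466 and 6.66 FPKM in control. Both were high in the replicate 2 libraries of NIM and control alike, and the groups overlapped.

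These 3 longer transcripts summed to 33.0 FPKM in heme and 31.8 and 32.0 FPKM in NIM, against 29.1 and 30.9 FPKM in control. The full-length transcript made up 96.6% of that sum in heme and 93.3% and 27.7% in NIM, against 96.8% and 41.9% in control. The unnamed MSTRG.21417.3 spans the locus and starts at base 102716700, within the annotated first exon of ENSMUST00000145913. It was at 4.43 FPKM in control replicate 1, 0.0122 FPKM in control replicate 2 and 0 in the heme and both NIM libraries. A model that starts in that exon was thus present in 1 control library, and use of the first exons themselves was not tested. Across the table, 44 transcripts (0.291%) were at 5 FPKM or more and at least 5-fold higher in both replicate 2 libraries than in every other library, and ENSMUST00000130602 and ENSMUST00000138224 were among them. The reverse held for 48 transcripts (0.318%), with 0 of the Hippo transcripts among them. Amotl2 thus showed 2 kinds of split, 1 between control and the other groups and 1 between the replicate 2 libraries and the others. Each left a similar total over the libraries for its set of transcripts. Over all transcripts tested, replicate differences were not shared by control and NIM (correlation -0.015). The opposite matching of replicates was not counted, so whether the split follows the replicate number was not tested.

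Summed over its 6 listed transcripts, Amotl2 was at 54.2 FPKM in heme cells, 54.8 and 54.7 FPKM in NIM cells, and 55.6 and 53.2 FPKM in control cells. The order of the group means was NIM (54.7 ± 0.0411 FPKM, SD, n = 2), control (54.4 ± 1.71 FPKM, SD, n = 2) and heme (54.2 FPKM, n = 1), and neighbours in it differed by less than the control spread. The highest library was 1.05 times the lowest, a smaller ratio than at all but 1.05% of the 5985 loci with a mean of at least 5 FPKM, where the median ratio was 1.28. On the log2(FPKM + 1) scale the sum differed from control by -0.0054 ± 0.091 (SE) in heme and by 0.0083 ± 0.075 (SE) in NIM. The table lists 6 of the 14 transcript numbers between the first and last of this locus, so the sums leave out whatever the other numbers hold.

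**Figure D2:**
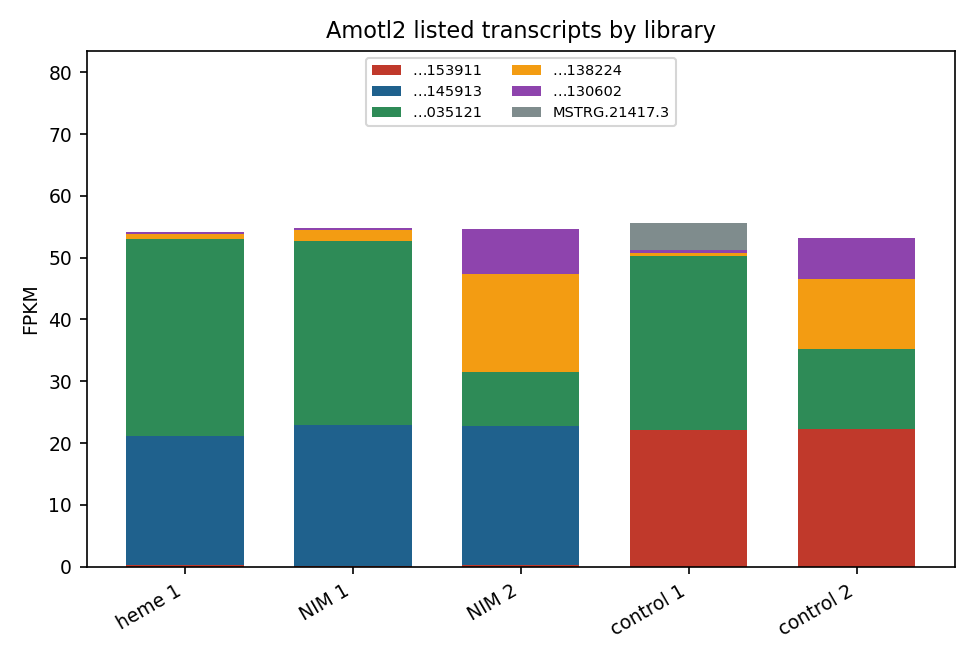
FPKM of each listed Amotl2 transcript (stacked, y axis) in the heme, 2 NIM and 2 control libraries (x axis); legend labels keep the last digits of the Ensembl identifiers. Bars end between 53.2 and 55.6 FPKM, the lowest large segment is ENSMUST00000145913 (blue) in heme and NIM and ENSMUST00000153911 (red) in control, and the orange and purple segments are large in the replicate 2 libraries.

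How rare the exchange was in the table can be given as a count, with limits chosen after its values were seen. Transcripts at 10 FPKM or more in the heme and both NIM libraries and under 1 FPKM in both controls numbered 4 (0.0265%). ENSMUST00000145913 was among them, as were transcripts of Tmem176a and Psmg1. The reverse pattern was found in 12 transcripts (0.0794%), among them ENSMUST00000153911 and transcripts of Capg, Pmp22, Tnfaip2, Cep57, Naa35 and Tbl3. Amotl2 was the 1 locus with a transcript in both sets. The Psmg1 transcript, of a proteasome assembly chaperone, had 22.9 FPKM in heme and 24.2 and 25.03 FPKM in NIM and was listed at 0 in both controls. Since the limits follow the Amotl2 values, the counts describe the table and are no test.

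Shares shifted widely at other loci too. Among the 3628 loci with at least 2 listed transcripts and a mean of at least 5 FPKM, the share of the most variable transcript ranged over a median of 41.6 percentage points across the 5 libraries. For Amotl2 this range was 42.6 points, more than at 50.9% of loci, and it belonged to ENSMUST00000035121, the transcript low in both replicate 2 libraries. The difference in Amotl2 composition (the part of the FPKM that would have to move between transcripts) was 5.20% between heme and NIM replicate 1, 38.5% between the 2 NIM libraries and 34.1% between the 2 controls. It was 47.3% and 73.0% between heme and the controls. Between NIM and control it was 47.8% to 81.7% within the 4 pairs, against medians of 13.8% to 15.5% for all loci over the 10 pairs of libraries. The upper quartile of all loci was 38.5% to 41.1% over the same 10 pairs, replicate pairs included.

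The authors' deposited tables give a log2 fold change of 7.39 in heme for ENSMUST00000145913 and -5.83 for ENSMUST00000153911. Over all transcripts, the log2 fold changes in the authors' deposited tables differed from the log2 ratio of the replicate 1 libraries by a median of 0.0225 for heme and 0.0195 for NIM. They therefore follow a single pair of libraries and add no replicate to the values above.

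Tead1 (chr7:112679320-112906807, plus strand) encodes a TEAD factor, the DNA-binding partner of YAP and TAZ, and was the most unevenly measured gene of the set by composition after Lats2. Only 3 of the 11 transcript numbers at its locus are listed, so its sums and shares leave out whatever the other numbers hold. Its locus sum was 24.0 FPKM in heme cells, 11.7 and 4.18 FPKM in NIM cells, and 6.75 and 24.4 FPKM in control cells. The heme library lay beside control replicate 2 and far above control replicate 1, and the NIM values overlapped the controls. The highest library was 5.84 times the lowest, a larger ratio than at 98.9% of loci. The order of the means was heme (24.0 FPKM, n = 1), control (15.6 ± 12.5 FPKM, SD, n = 2) and NIM (7.95 ± 5.32 FPKM, SD, n = 2), and no neighbours in it were apart by more than the control spread.

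Nearly all of the high Tead1 values came from the unnamed assembled transcript MSTRG.18987.5, which was at 22.8 FPKM in heme, 0 and 0 FPKM in NIM, and 0 and 22.5 FPKM in control. Its mean coverage was 98.0 reads per base in heme and 97.8 in control replicate 2. The full-length ENSMUST00000059768 was at 0.683 FPKM in heme and 11.0 and 3.33 FPKM in NIM, against 1.77 and 1.29 FPKM in control, so both NIM libraries were above the other 3. ENSMUST00000165036 was at 0.488 FPKM in heme and 0.675 and 0.850 FPKM in NIM, against 4.98 and 0.669 FPKM in control, and control replicate 1 stood alone.

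The named Tead1 transcripts together were at 1.17 FPKM in heme and 11.7 and 4.18 FPKM in NIM, against 6.75 and 1.95 FPKM in control. ENSMUST00000059768 is annotated with 13 coding exons and ENSMUST00000165036 with 12. The difference is 1 exon of 63 bases (chr7:112842040-112842102, plus strand), an in-frame block of 21 codons. ENSMUST00000059768 made up 2.85% of the Tead1 locus in heme and 94.2% and 79.7% in NIM, against 26.2% and 5.26% in control. Its share was thus higher in both NIM libraries than in either control, while the leading transcript also differed between the 2 controls. Its share differed from the control mean by -12.9 points in heme and 71.2 points in NIM. Over the named transcripts alone it differed by 12.4 points in heme and 41.0 points in NIM, so the direction in heme rested on whether the unnamed transcript was counted. The leading transcript in both NIM libraries differed from that of both controls at 7.17% of the 3628 loci, Tead1 being one of them, and it differed between the 2 controls at 31.2%. On the log2(FPKM + 1) scale the Tead1 sum was 0.83 ± 0.89 (SE) above control in heme and -0.79 ± 0.73 (SE) from control in NIM; without control replicate 2 these were 1.69 and 0.067, and without control replicate 1 they were -0.027 and -1.65.

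**Figure D3:**
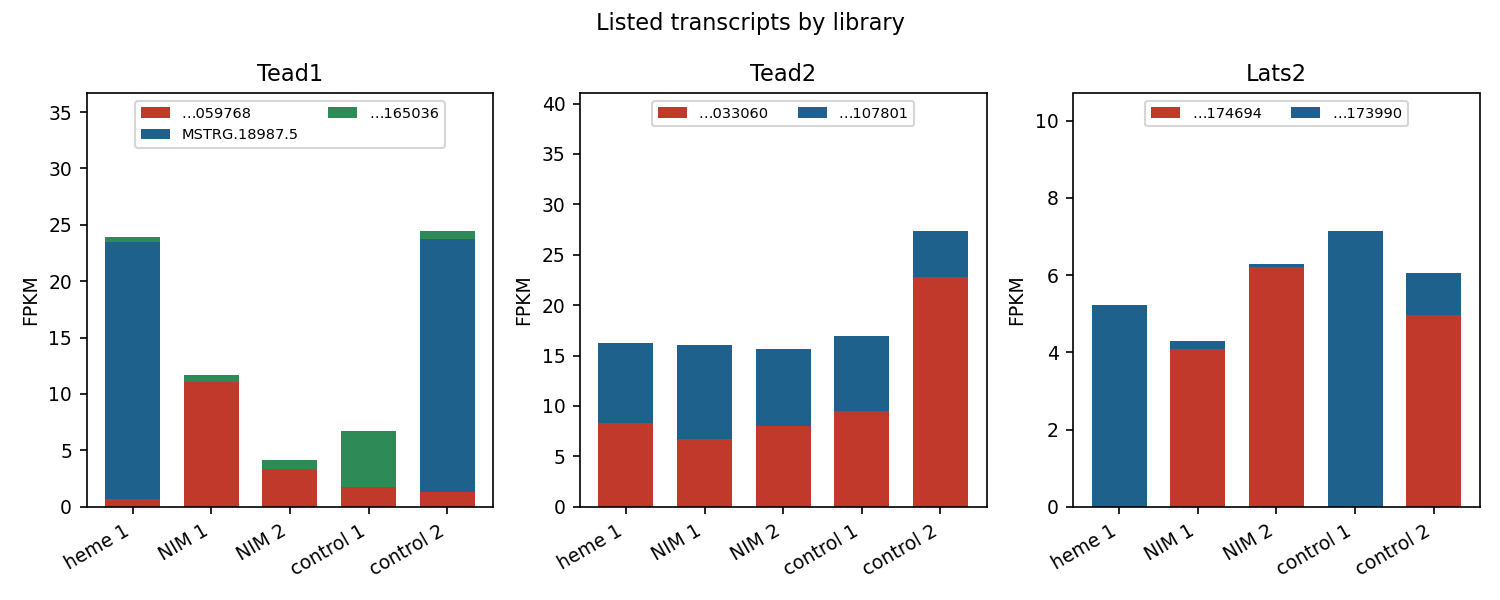
FPKM of each listed transcript of Tead1, Tead2 and Lats2 (stacked, y axis, 1 panel per gene) in the heme, 2 NIM and 2 control libraries (x axis). MSTRG.18987.5 fills the Tead1 bars of heme and control replicate 2 (22.8 and 22.5 FPKM), and ENSMUST00000174694 fills the Lats2 bars of both NIM libraries and control replicate 2.

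Tests of the other 6 loci and their 9 tested transcripts came from limma fits over all 7039 loci and 13737 transcripts. With Benjamini-Hochberg adjustment at 0.05, limma called 0 of the 6 loci and 0 of the 9 transcripts in either comparison. In the same fits it called 0.0426% of all loci and 0.0728% of all transcripts in heme, and 0.0142% of loci and 0.00728% of transcripts in NIM. At an unadjusted p under 0.05 there was 1 of 6 loci in each comparison, where 3.59% of all loci passed in heme and 3.05% in NIM; for transcripts there were 2 of 9 in heme and 1 of 9 in NIM, where 4.95% and 4.98% of all transcripts passed. The heme and NIM comparisons share the 2 control libraries, so their values for 1 gene are set side by side and are not independent.

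Among the coactivators, Wwtr1 (TAZ, chr3:57455649-57575828, minus strand) stood above control in every heme and NIM library. Its sum was 47.8 FPKM in heme and 45.7 and 49.2 FPKM in NIM, against 29.5 and 27.0 FPKM in control. The groups did not overlap: the lowest heme or NIM library was well above the higher control, and the spread within NIM and within control was small. Wwtr1 averaged 47.4 ± 2.43 FPKM in NIM cells and 28.3 ± 1.79 FPKM in control cells (SD, n = 2 each). The log2 difference from control on the log2(FPKM + 1) scale was 0.74 ± 0.12 (SE) in heme, with a limma p of 0.00213 and an adjusted p of 0.587. In NIM it was 0.73 ± 0.095 (SE), with a limma p of 0.000978 and an adjusted p of 0.80.

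Neither Wwtr1 difference passed the adjusted threshold. Over 14 other settings the limma adjusted p ranged from 0.00633 to 1 in heme and from 0.235 to 1 in NIM. The lowest heme value came from counting both heme columns as separate libraries. Over the same settings the log2 difference stayed between 0.68 and 1.28 in heme and between 0.67 and 0.79 in NIM. Heme and both NIM libraries lay above both controls at 9.26% of all loci tested.

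Both Wwtr1 transcripts had this arrangement. The annotated ENSMUST00000029380 was at 13.5 FPKM in heme and 10.1 and 11.3 FPKM in NIM, against 7.28 and 6.52 FPKM in control. The unnamed MSTRG.12368.2 was at 34.3 FPKM in heme and 35.6 and 37.9 FPKM in NIM, against 22.2 and 20.5 FPKM in control. In each transcript the heme and NIM libraries were above both controls. The annotated transcript kept 22.1% to 28.2% of the locus, and composition differed between libraries by at most 6.04%, a range wider than at 6.53% of the 3628 loci.

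Yap1 (chr9:7934497-8001703, minus strand), the paralog of Wwtr1, had a single listed transcript at 2.91 FPKM in heme and 3.35 and 4.12 FPKM in NIM, against 4.44 and 0.972 FPKM in control. Control replicate 2 was low and the other 4 libraries lay between 2.91 and 4.44 FPKM. The log2 difference was 0.25 ± 0.70 (SE) in heme and 0.53 ± 0.57 (SE) in NIM, with limma adjusted p of 0.998 and 0.935. Without control replicate 2 the signs turned, to -0.48 in heme and -0.21 in NIM, so the direction rested on that library.

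Of the TEAD factors besides Tead1, Tead2 (chr7:45215753-45233619, plus strand) was at 16.2 FPKM in heme and 16.0 and 15.7 FPKM in NIM, against 16.9 and 27.3 FPKM in control. Heme and NIM were below both controls, but control replicate 1 was close to them and control replicate 2 stood apart. The log2 difference was -0.39 ± 0.30 (SE) in heme and -0.42 ± 0.24 (SE) in NIM, with limma adjusted p of 0.998 and 0.935, and without control replicate 2 it was -0.056 and -0.089. The excess of that library was in ENSMUST00000033060, at 8.28 FPKM in heme and 6.73 and 8.04 FPKM in NIM, against 9.52 and 22.8 FPKM in control. The other transcript, ENSMUST00000107801, was at 7.96 FPKM in heme and 9.29 and 7.65 FPKM in NIM, against 7.40 and 4.50 FPKM in control.

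Tead3 (chr17:28331714-28350805, minus strand) was the least expressed member, at 2.22 FPKM in heme and 0.0837 and 0.185 FPKM in NIM, against 2.39 and 0.0134 FPKM in control. It was detected at over 1 FPKM in heme and control replicate 1 alone, so the control libraries spanned the whole range of the others. The log2 difference was 0.80 ± 1.02 (SE) in heme and -0.71 ± 0.84 (SE) in NIM, with limma adjusted p of 0.998 and 0.935, and without control replicate 2 they were -0.074 and -1.58.

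Lats2 (chr14:57642077-57746105, minus strand), the kinase that phosphorylates YAP and TAZ, had a sum of 5.22 FPKM in heme and 4.30 and 6.28 FPKM in NIM, against 7.13 and 6.06 FPKM in control. Heme was below both controls and NIM overlapped them. The log2 difference was -0.28 ± 0.31 (SE) in heme and -0.29 ± 0.25 (SE) in NIM, with limma adjusted p of 0.998 and 0.935. The NIM value was -0.057 without NIM replicate 1 and -0.52 without NIM replicate 2. The listed transcripts are 2 of the 6 transcript numbers at this locus, so the sum and shares leave out whatever the other numbers hold. Within this sum the 2 listed transcripts held very unequal parts from library to library. ENSMUST00000173990, the protein-coding Lats2 model, was at 5.22 FPKM in heme and 0.215 and 0.0818 FPKM in NIM, against 7.13 and 1.09 FPKM in control. ENSMUST00000174694 was at 0 FPKM in heme and 4.09 and 6.20 FPKM in NIM, against 0 and 4.97 FPKM in control.

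The deposited table names both transcripts Lats2, but GENCODE M21 assigns ENSMUST00000174694 to the readthrough gene Gm49361, as a nonsense-mediated decay model that runs past the end of Lats2. The protein-coding model made up 100% of the locus in heme and 4.99% and 1.30% in NIM, against 100% and 18.0% in control. Heme and control replicate 1 thus had one composition, and both NIM libraries and control replicate 2 nearly the other. Its range of 98.7 percentage points was larger than at 99% of loci. In the test, ENSMUST00000173990 had a log2 difference of -1.85 ± 0.86 (SE) in NIM, with a limma adjusted p of 0.938.

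Amot (chrX:145446425-145487046, minus strand), the founding angiomotin, had a single listed transcript at 6.51 FPKM in heme and 3.40 and 6.30 FPKM in NIM, against 6.61 and 6.20 FPKM in control. NIM replicate 1 was low and the other 4 libraries lay between 6.20 and 6.61 FPKM. The log2 difference was 0.021 ± 0.38 (SE) in heme and -0.39 ± 0.31 (SE) in NIM, with limma adjusted p of 0.999 and 0.935. The NIM value was -0.021 without NIM replicate 1 and -0.75 without NIM replicate 2. Its level (3.40 to 6.61 FPKM) was far below that of Amotl2 (53.2 to 55.6 FPKM), both scaled by length.

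**Figure D4:**
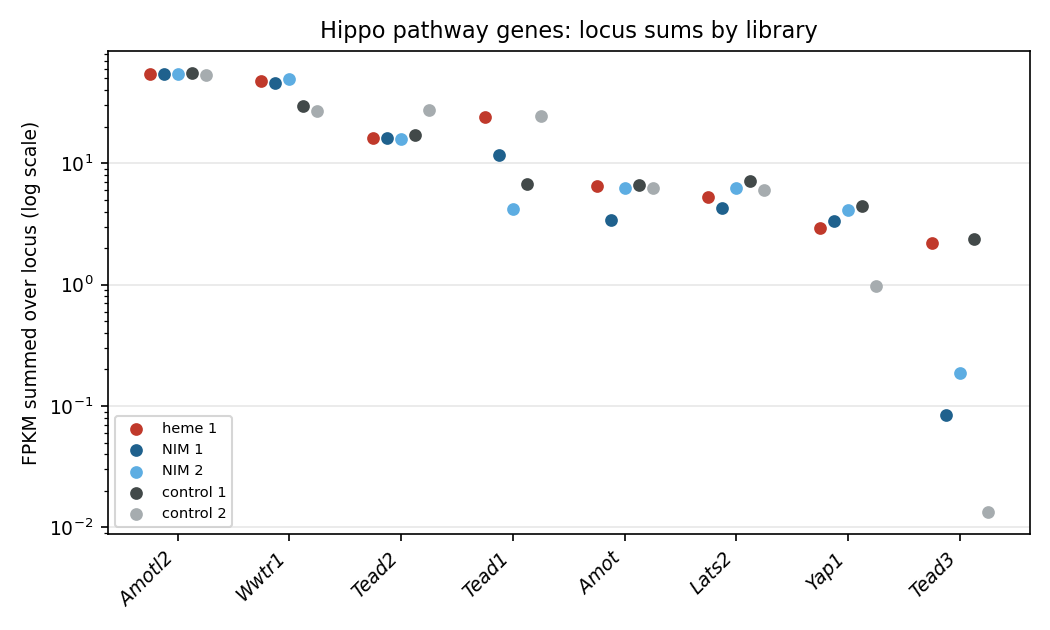
FPKM summed over each Hippo locus (y axis, log scale) for the 8 genes (x axis), with 1 point per library: heme, 2 NIM and 2 control libraries from left to right within a gene. Wwtr1 heme and NIM points (45.7 to 49.2 FPKM) lie above its control points (27.0 and 29.5 FPKM), Amotl2 points coincide, and control replicate 2 stands apart for Tead2, Yap1 and Tead3.

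By FPKM sum, Amotl2 (53.2 to 55.6 FPKM) was above every other gene of the set in each library, and Wwtr1 (27.0 to 49.2 FPKM) was next in mean level. Below them the ranges ran into each other: Tead1 (4.18 to 24.4 FPKM) overlapped Tead2 (15.7 to 27.3 FPKM) at its upper end and Amot (3.40 to 6.61 FPKM), Lats2 (4.30 to 7.13 FPKM) and Yap1 (0.972 to 4.44 FPKM) at its lower end, and Yap1 also overlapped Tead3 (0.0134 to 2.39 FPKM). The Amotl2 sum includes its short first-exon models. Its 3 longer transcripts alone (29.1 to 33.0 FPKM) were below Wwtr1 in every library but control replicate 2. Of the 6 tested loci, 1 was above both controls and 2 were below both in heme, where 25.5% and 31.1% of all loci were. In NIM 1 was above in both libraries and 1 below, where 18.2% and 13.0% of all loci were. These shares are near the background.

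The promoters of these genes were searched for the core of the TEAD binding site, CATTCC, or GGAATG on the other strand, because the YAP and TAZ feedback loop acts through it. RefSeq promoters (250 bases before to 50 after a start, GRCm38.p6) were found for 7 of the 8 genes, Tead1 being the exception, as 11 promoters. Of these, 7 promoters, of 5 genes, held a match, against 14.7% of all 32851 promoters in the table. Promoters of 1 gene can overlap, and the 2 of Wwtr1 hold the same match, so these promoters are not independent and the shares are not compared. The 30 bases around a match, 5′ to 3′ on the gene's strand with the match in capitals, are given for 4 genes; a match is a description of these letters and no evidence of binding.
Amotl2 (chr9:102717727-102717756, plus strand): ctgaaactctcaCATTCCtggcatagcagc
Wwtr1 (chr3:57576029-57576058, minus strand): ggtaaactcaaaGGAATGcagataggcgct
Yap1 (chr9:8004720-8004749, minus strand): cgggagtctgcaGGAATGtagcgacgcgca
Lats2 (chr14:57746102-57746131, minus strand): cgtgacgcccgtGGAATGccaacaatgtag

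The Amotl2 match lies 65 bases before the RefSeq start and within the annotated first exon of ENSMUST00000035121. That is downstream of the annotated first exons of ENSMUST00000145913 and ENSMUST00000153911. RefSeq starts need not be those of the listed transcripts. Tead3 held 4 matches in its 3 promoters, and Amot and Tead2 held 0.

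The rest of the pathway was read from lists of genes by role, as locus sums. In these fits limma called 0.0426% of all loci in heme and 0.0142% in NIM. A count of 0 in each list below is therefore near the share over all loci and is no result about the pathway. Of 21 upstream kinases and adaptors of the core cascade, 14 were listed. Limma called 0 of the 14 in either comparison, and the median log2 difference from control was -0.017 in heme and -0.040 in NIM, against -0.0035 and 0.019 over all loci. Mink1, a MAP4K-family kinase that acts in parallel to the MST kinases, was at 13.8 FPKM in heme and 19.3 and 16.9 FPKM in NIM, against 22.7 and 15.7 FPKM in control. Nf2 (merlin), which recruits LATS to the membrane, was at 25.7 FPKM in heme and 31.4 and 28.6 FPKM in NIM, against 27.5 and 26.4 FPKM in control. Both NIM libraries were above both controls for Nf2, by a log2 difference of 0.15 ± 0.099 (SE) with a limma adjusted p of 0.935. The same held at 18.2% of all loci tested, and Nf2 was named for a large difference within its list.

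Of 25 negative regulators of the cascade, most of them subunits of the STRIPAK phosphatase complex that inactivates MST kinases, 15 were listed and limma called 0. Their median log2 difference was -0.0061 in heme and 0.019 in NIM. Fgfr1op2, a STRIPAK component, was at 38.0 FPKM in heme and 25.5 and 31.2 FPKM in NIM, against 35.4 and 37.2 FPKM in control. Both NIM libraries were below both controls, with a log2 difference of -0.36 ± 0.13 (SE), a limma p of 0.0427 and an adjusted p of 0.935. Dlg5, a polarity scaffold, was at 8.41 FPKM in heme and 7.31 and 4.08 FPKM in NIM, against 9.27 and 8.91 FPKM in control. NIM and control again did not overlap, with an adjusted p of 0.935 by limma. Both NIM libraries were below both controls at 13% of all loci tested, and both genes were named for large differences within their list.

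Partners of YAP, TAZ and TEAD were listed for 14 of 21 genes, and limma called 0, with medians of 0.011 in heme and 0.022 in NIM. Runx2, a transcription factor that binds YAP and TAZ, was at 7.29 FPKM in heme and 5.74 and 5.40 FPKM in NIM, against 3.68 and 4.24 FPKM in control. Heme and NIM were above both controls, by 0.74 ± 0.26 (SE, log2) in heme with a limma p of 0.0408 and adjusted p of 0.998, and by 0.41 ± 0.21 (SE) in NIM with an adjusted p of 0.935. That arrangement was found at 9.26% of all loci tested, and Runx2 was named for a large difference within its list. Runx1 was at 13.4 FPKM in heme and 14.4 and 16.9 FPKM in NIM, against 5.56 and 13.6 FPKM in control, where the controls themselves were far apart. Ywhae, a 14-3-3 protein that holds phosphorylated YAP in the cytoplasm, was at 207.3 FPKM in heme and 258.8 and 307.8 FPKM in NIM, against 301.5 and 258.8 FPKM in control. Heme was the lowest library for Ywhae, with a log2 difference of -0.43 ± 0.15 (SE), a limma p of 0.0442 and an adjusted p of 0.998. It was the lowest library at 20.7% of all loci tested.

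Angiomotin partners, junction proteins and the ubiquitin ligases that degrade angiomotins were listed for 22 of 32 genes. Limma called 0 of them, and the medians were -0.038 in heme and -0.071 in NIM. Rnf146, a ligase that acts after tankyrase on angiomotins, was at 12.3 FPKM in heme and 1.23 and 11.9 FPKM in NIM, against 7.96 and 10.4 FPKM in control, with NIM replicate 1 alone low. Wwp2, a ubiquitin ligase of the NEDD4 family, was at 28.5 FPKM in heme and 27.8 and 26.9 FPKM in NIM, against 25.8 and 23.2 FPKM in control. Heme and NIM were above both controls for Wwp2, with limma adjusted p of 0.998 and 0.935. The same arrangement was found at 9.26% of all loci tested, and Wwp2 was named for a large difference within its list.

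YAP and TAZ target genes were listed for 14 of 24 names, Amotl2 and Lats2 among them, and limma called 0 of the 14 loci. Amotl2 was chosen by its values, so its part in this count, the medians and the ranks below is description and no test. The median log2 difference of the 14 loci was -0.024 in heme and -0.15 in NIM. Without control replicate 2 it was -0.035 and -0.11. Control replicate 2 was the highest library at 5 of the 14 loci and the lowest at 5, where it was the highest at 28.2% and the lowest at 32.3% of all loci. Cyr61 was at 201.9 FPKM in heme and 172.4 and 162.5 FPKM in NIM, against 183.5 and 284.0 FPKM in control. Ctgf was at 184.5 FPKM in heme and 152.6 and 145.5 FPKM in NIM, against 161.7 and 212.7 FPKM in control.

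For both, NIM was below both controls and heme was between them. The NIM difference was -0.45 ± 0.22 (SE, log2) for Cyr61 and -0.31 ± 0.15 (SE, log2) for Ctgf, each with a limma adjusted p of 0.935, and without control replicate 2 it was -0.13 and -0.12. Ankrd1, a nuclear and sarcomeric ankyrin-repeat protein, was at 52.7 FPKM in heme and 46.6 and 47.0 FPKM in NIM, against 54.1 and 54.9 FPKM in control. The NIM and control values did not overlap, but Ankrd1 was named after its values were seen. Limma did not call it, the lowest limma adjusted p of the list in NIM being 0.935. NIM was below both controls at 13% of all loci tested. Control replicate 2, which had the lowest Yap1 level, was the highest library for Cyr61, Ctgf, Ankrd1, F3 and Ptpn14 and the lowest for Amotl2, Asap1, Axl, Igfbp3 and Tgfb2. Whether these differences share a source was not tested.

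**Figure D5:**
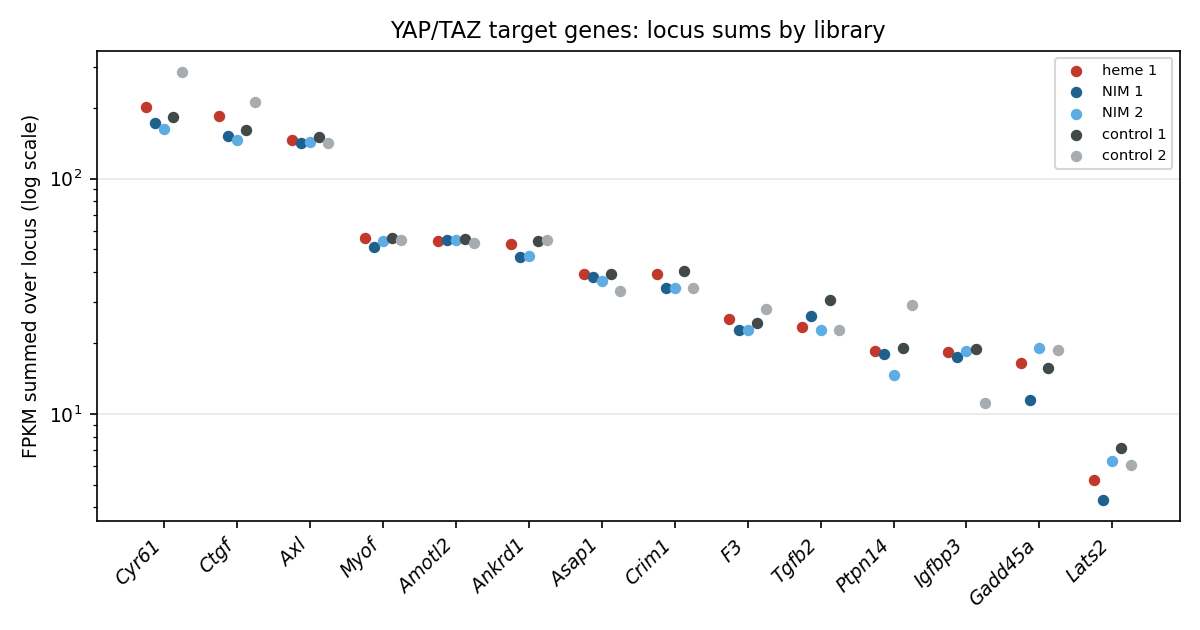
FPKM summed over the locus (y axis, log scale) for the 14 listed YAP and TAZ target genes (x axis, by median level), with 1 point per library: heme, 2 NIM and 2 control libraries from left to right within a gene. Control replicate 2 (light grey) stands above the other points for Cyr61 (284.0 FPKM) and Ptpn14 and below them for Igfbp3 (11.1 FPKM).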

How the data were processed

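The build was GRCm38 (mm10), with HISAT2 and StringTie among the tools, per the submitters' processing notes, which give no versions. The authors deposited FPKM and mean coverage per assembled transcript, and, for each comparison, tables of p-values, likelihood ratio scores, log2 fold changes and log2 abundances. The rule that chose the listed transcripts is not given. FPKM were summed over the listed transcripts of each StringTie locus. Exons came from GENCODE M21, promoters from RefSeq.

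Tests used limma 3.58.1 in R 4.3.3 (eBayes with an intensity trend), two-sided, on log2(FPKM + 1), for features with at least 1 FPKM in at least 2 of 5 libraries. All 8 loci and 16 of 18 transcripts passed. The fit had 2 residual degrees of freedom, and heme, with 1 library, takes its spread from the NIM and control pairs. Fold changes on this scale understate changes of low transcripts. Depth came from the ratio of coverage to FPKM; FPKM allow no counting interval.

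The members and lists were chosen with earlier results of these data known. Named were all transcripts of the rule, from each list up to 3 genes per comparison with the largest difference and a mean of at least 5 FPKM (some of these are not reported here), and the 5 transcripts most correlated with the leading named Amotl2 and Tead1 transcripts. Ankrd1, F3, Asap1, Axl, Tgfb2 and the genes that share the Amotl2 pattern were named after their values were seen.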

Additional observations from a re-analysis of the deposited data

How the results depend on the processing

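Counts of calls over the whole table depended on the settings. In heme, the 10 transcripts called became 417 with both heme columns as 2 libraries, 6 with no filter, with a filter in 1 library and with quantile scaling, 0 with no intensity trend, and 0 to 9 without 1 library; the 3 loci became 207 with both heme columns and 0 to 3 without 1 library. In NIM, the 1 transcript became 86 with both heme columns, 0 with no filter, with a filter in 1 library and with no intensity trend, and 0 to 1 without 1 library. The 1 NIM locus became 51 with both heme columns, 27 with no intensity trend, 0 with a pseudocount of 0.1 or 0.5, 0 with no filter and with a filter in 1 library, and 0 to 1 without 1 library.

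The replicate numbers did not pair the samples (correlation of deviations between control and NIM -0.051 over loci and -0.015 over transcripts, 2 pairs). With the replicate block the calls were 0 heme transcripts, 4 heme loci, 0 NIM transcripts and 2 NIM loci.

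The Amotl2 sum in heme differed from control by -0.037 to 0.40 without 1 library, the highest value being that without heme replicate 1; it was 0.21 with the mean of both heme columns and 0.20 with both as 2 libraries. The ENSMUST00000145913 share was 37.6 to 38.6 points above control in heme without 1 library, and by bases 10.3 points in heme and 11.6 points in NIM. The ENSMUST00000153911 share differed from control by -42.0 points in heme and -42.1 points in NIM over named transcripts alone, and by -11.5 points by bases in both. Alternative values of fold changes and shares of the 8 Hippo genes, Amotl2 included, were read by rules that differed between genes. For the tested loci a value counted as the same if it kept its sign and its side of the threshold, whatever its size. For Amotl2 and Tead1 it counted as the same if it moved by no more than the replicate spread. By these rules 191 values were the same. Another 21 changed sign with no call, or moved beyond the spread, and 1 became a call (Wwtr1 in heme with both heme columns). The Wwtr1 value in heme without heme replicate 1, at 1.28, counted as the same. Some of the 191 values could not differ. Changing the heme columns leaves a NIM fold change as it was, and leaving out a NIM library leaves a heme fold change as it was. The replicate spread of the Tead1 sum was wide (SD 1.07, log2). Its NIM difference therefore counted as the same at 0.067 without control replicate 2, against -0.79 in the main fit, despite the change of sign. All 20 alternative values of the list medians stayed within 0.1 (log2) of the main value. That limit is wider than most of these medians, and some of them changed sign. Without control replicate 2 the median of the negative regulators in heme went from -0.0061 to 0.026. In the same setting the median of the YAP, TAZ and TEAD partners went from 0.011 to -0.022 in heme and from 0.022 to -0.026 in NIM. The cause was not tested. Precision is limited by 1 distinct heme library and 2 libraries in each other group; no detection limit was measured.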

Other observations

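The leading named transcripts of Amotl2 and Tead1 were also compared with transcripts of other genes over the 5 libraries, by Pearson's r of log2(FPKM + 1). With so few libraries high values arise readily, and they are given with no p. For ENSMUST00000035121 of Amotl2, the closest of 6599 transcripts belonged to Eef1a1 (r = 0.998), a translation elongation factor, Gde1 (0.995), Zc3hc1 (0.994), Ppan (0.992) and Slc6a6 (0.99). Ppan, a ribosome biogenesis factor, had 38.0 FPKM in heme and 36.9 and 12.9 FPKM in NIM, against 35.5 and 15.3 FPKM in control, low in both replicate 2 libraries as the Amotl2 transcript was. For ENSMUST00000059768 of Tead1, the closest of 6603 transcripts belonged to Cpsf3 (0.999), an mRNA 3′ end endonuclease, Pcbp1 (0.998), Rap1gds1 (0.994), Cox6b1 (0.991) and Gm9385 (0.989). Rap1gds1 had 2.70 FPKM in heme and 28.0 and 8.44 FPKM in NIM, against 4.94 and 3.001 FPKM in control, while the Cpsf3 transcript spanned 22.1 to 25.2 FPKM.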
